A study of Homo sapiens with 6 samples.

Results

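The windows described here are the 100 stretches of 1 Mb in which regions of matrix-attached DNA lay most densely in H1 human pluripotent stem cells. The 22 autosomes were divided into 2886 windows of 1 Mb, counted from the start of each chromosome, and the regions of 3 lists were added up by the window that held their centre. The 100 windows with the highest sums were taken, and ties were settled by chromosome and start. The windows were thus selected on the measured number of regions, and their high density is the rule that chose them, not a result. They made up 3.47% of all windows and held 9162 of the 114173 autosomal regions of the 3 lists.

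The regions came from MAR-seq, which sequences the DNA that stays with the nuclear matrix after nuclei have been washed and their chromatin cut. H1 is an established human embryonic stem cell line, here grown in mTeSR1 medium on Matrigel. The 6 samples formed 3 groups of 2: H1 cells with no treatment (hPSC), H1 cells with an shRNA against HNRNPU (shHNRNPU) and H1 cells with an shRNA against LUC (shLUC), taken here as the control hairpin. In all groups nuclei were released with a cytoskeletal buffer holding Triton X-100, fixed with formaldehyde and cut with MspI, HaeIII, RsaI, AluI, BamHI and PvuII. One list of regions per group was analysed, so no value below has a replicate error, and the knockdown of HNRNPU could not be checked in these lists. Beside shares, exact (Clopper-Pearson) 95% binomial intervals are given. They cover counting error only, and neighbouring regions are not independent.

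The nuclear matrix is the network of protein and RNA that remains when soluble nuclear material and most chromatin have been removed, and the DNA held by it is called a matrix or scaffold attachment region. HNRNPU, also known as scaffold attachment factor A, binds both RNA and such DNA and has been linked to how open or compact active chromatin is. Gene-dense chromosome bands are known for short genes, a high GC content and early replication, and many of them lie near chromosome ends.

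The DNA under the lists is shown here at gene starts, where regions of all 3 lists meet. The 4 promoters below belong to genes of the highest-ranked dense windows, 1 per window, at which a region of every list overlapped the 300 bases from 250 before to 50 after the gene start. Sequences are those of RefSeq on GRCh38.p14, written 5′ to 3′ along the gene's strand, and capitals mark the recognition sites of the enzymes used to cut the nuclei. These sites read the same on both strands. They are CCGG for MspI, then GGCC for HaeIII, also GTAC for RsaI and AGCT for AluI, and finally GGATCC for BamHI, while the PvuII site CAGCTG contains that of AluI. Of a PvuII site only the inner AGCT is in capitals. Where sites overlap or touch, the capitals run together.
DNAJC5: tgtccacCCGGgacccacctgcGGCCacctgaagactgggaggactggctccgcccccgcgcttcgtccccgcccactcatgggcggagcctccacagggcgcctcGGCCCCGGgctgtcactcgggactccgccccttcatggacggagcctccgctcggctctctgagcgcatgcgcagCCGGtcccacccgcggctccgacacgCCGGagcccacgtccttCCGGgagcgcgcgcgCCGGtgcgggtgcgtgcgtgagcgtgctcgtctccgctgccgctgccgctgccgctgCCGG
JMJD8: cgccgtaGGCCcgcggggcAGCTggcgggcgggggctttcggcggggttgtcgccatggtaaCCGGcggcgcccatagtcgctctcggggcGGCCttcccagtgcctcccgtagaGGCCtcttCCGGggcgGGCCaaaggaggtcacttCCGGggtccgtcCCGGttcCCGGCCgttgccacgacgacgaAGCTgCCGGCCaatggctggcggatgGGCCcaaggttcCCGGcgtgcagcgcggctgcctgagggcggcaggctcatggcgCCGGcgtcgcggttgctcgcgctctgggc
NPDC1: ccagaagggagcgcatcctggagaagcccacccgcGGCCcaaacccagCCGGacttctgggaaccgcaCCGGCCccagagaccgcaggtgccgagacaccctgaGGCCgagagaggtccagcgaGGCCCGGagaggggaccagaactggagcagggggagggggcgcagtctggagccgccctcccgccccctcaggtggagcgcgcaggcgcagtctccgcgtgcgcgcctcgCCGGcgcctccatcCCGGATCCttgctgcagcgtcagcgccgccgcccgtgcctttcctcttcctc
AGPAT2: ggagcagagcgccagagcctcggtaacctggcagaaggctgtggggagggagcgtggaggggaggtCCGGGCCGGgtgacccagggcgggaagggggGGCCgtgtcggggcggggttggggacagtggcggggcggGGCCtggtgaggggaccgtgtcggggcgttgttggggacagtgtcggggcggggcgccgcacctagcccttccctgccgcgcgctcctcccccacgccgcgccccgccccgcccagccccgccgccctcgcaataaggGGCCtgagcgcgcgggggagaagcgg

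DNAJC5 codes for a chaperone of synaptic vesicles, and its promoter at chr20:63894876-63895175 (plus strand) lay in the window ranked 2. The hPSC region there, chr20:63894615-63895014, covered 139 of the promoter's 300 bases, and the shLUC and shHNRNPU regions shared 1 position, chr20:63894967-63895366, which covered 209. The promoter was 75.7% G and C, with 41 CpG pairs, 7 MspI sites and 2 HaeIII sites. The promoter of JMJD8, which codes for a protein of the endoplasmic reticulum, lay at chr16:684285-684584 (minus strand) in the window ranked 6. It held 8 MspI, 7 HaeIII and 2 AluI sites, with 1 AluI site inside a PvuII site. Its hPSC region covered all 300 bases, against 147 for the position shared by both hairpin lists. NPDC1, named for a role in the control of neural proliferation, had its promoter at chr9:137046128-137046427 (minus strand) in the window ranked 7, where the hPSC region covered 206 bases and the position shared by the hairpin lists covered 257. AGPAT2, an acyltransferase that makes phosphatidic acid, had its promoter at chr9:136687408-136687707 (minus strand) in the window ranked 8, with 247 bases covered by the hPSC region and 120 by the position of both hairpin lists. At all 4 promoters the hairpin lists held the same position and the hPSC list another. This is common in the lists and not particular to these promoters. In dense windows 68.6% of shLUC regions had the coordinates of a shHNRNPU region, and 4.85% of hPSC regions had those of a shLUC region.

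The lists held 40106 regions (hPSC), 39368 (shLUC) and 36277 (shHNRNPU), of which 39526, 38860 and 35787 lay on autosomes. Each region was 400 bp wide and carried no height or p-value, and read depth is unknown. Of the 2886 windows, 132 held no region of any list.

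The sums of the dense windows ran from 80 to 135 with a median of 87, while the other windows had a median of 38. The limit fell within a tie, since 12 windows had a sum of 80. Of these, 11 were taken and 1 was left out, chr19:3000001-4000000, with 23 hPSC, 30 shLUC and 27 shHNRNPU regions. The last window taken, chr18:46000001-47000000, held 29, 24 and 27. Per dense window the hPSC list gave at least 17, in the median 29 and at most 42 regions, the shLUC list 21, 30 and 55, and the shHNRNPU list 19, 28 and 49. The densest window, chr19:1000001-2000000, held 31 hPSC, 55 shLUC and 49 shHNRNPU regions. The next, chr20:63000001-64000000, held 32, 53 and 46, and the third, chr8:143000001-144000000, held 27, 52 and 46. In these 3 windows the hPSC count was the lowest. The window ranked 4, chr11:64000001-65000000, had nearly equal counts of 39, 43 and 41.

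**Figure D1:**
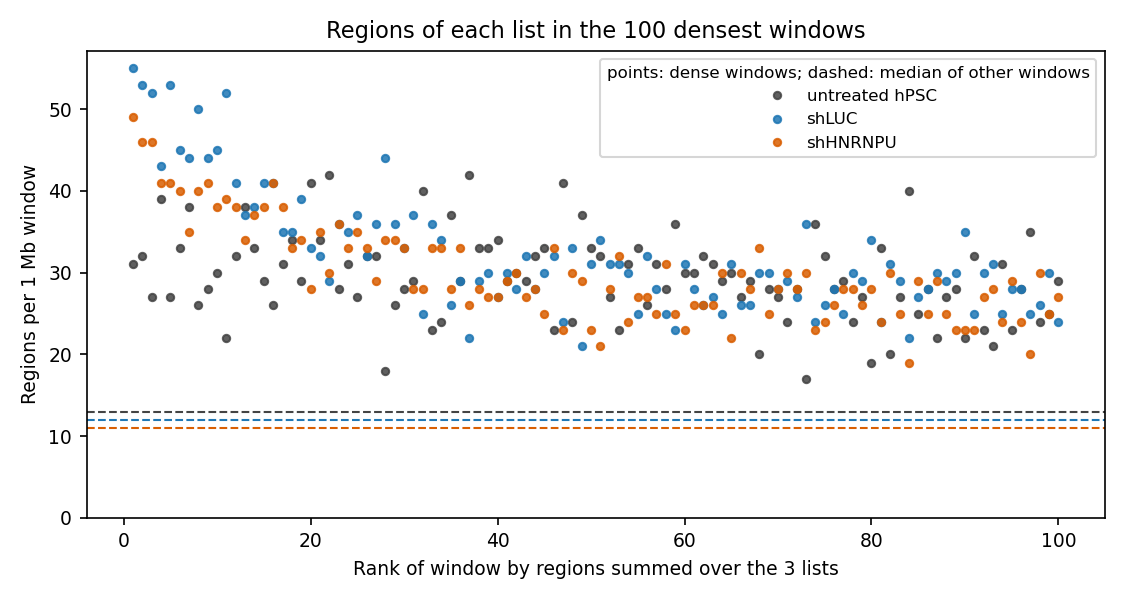
Regions per 1 Mb window (vertical axis) against the rank of the window by the summed count (horizontal axis), with 1 point per list and dense window and dashed lines at the median of the other windows (13 for hPSC, 12 for shLUC, 11 for shHNRNPU). Every dense window lay above these medians in all 3 lists, and among the first ranks the hPSC points lay mostly below those of the hairpin lists.

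Within a dense window the regions were spread out. In 94 of the 100 windows each of the 10 bins of 100 kb held a region, and the fullest bin held in the median 16.4% of a window's regions (12.8% to 24.7%). Of the 1000 bins of 100 kb in dense windows, 89.0% held regions of all 3 lists. The median distance between neighbouring region centres was 23.2 kb for the hPSC list, against 20.5 kb for that of shLUC and 22.8 kb for that of shHNRNPU. These values follow in part from the high counts by which the windows were chosen.

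Density in one list went with density in the others, but the lists did not share their order. To use a measure the ranking had not used, windows were ranked on 2 lists and counted in the list left out. The 100 windows densest in the 2 hairpin lists held on average 26.3 hPSC regions, against 13.2 in the remaining windows, which is 1.98 times as many. For shLUC, left out in the same way, the means were 30.4 and 12.9 (2.36 times), and for shHNRNPU 28.4 and 11.8 (2.40 times). Of the 100 windows, 99 exceeded the median of the remaining windows in hPSC, and 100 did so in shLUC and in shHNRNPU. With a hairpin list left out, the other hairpin list stayed in the ranking. In dense windows 68.6% of shLUC regions had the coordinates of a shHNRNPU region. The values for shLUC and shHNRNPU thus rest in large part on positions that also ranked the windows. Ranked on a single list, the 100 densest windows of hPSC included 53 of the 100 dense windows, those of shLUC 67 and those of shHNRNPU 73. All 3 rankings contained 25 of them, and 2 dense windows were in none. Of the 100 densest windows of each list, 60 were shared between the hairpin lists, 32 between hPSC and shLUC, and 35 between hPSC and shHNRNPU.

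The dense windows were rich in genes, and their genes were short. They held 2454 of 18969 autosomal protein-coding genes (12.9%, 12.5% to 13.4%) on 3.47% of the windows. A dense window held in the median 22 protein-coding genes (4 to 64), against 15 for the windows ranked 101 to 200 and 4 for all other windows. The genes of dense windows had a median length of 12.6 kb, against 27.7 kb elsewhere. Genes over 200 kb made up 1.14% (0.759% to 1.64%) of them, against 7.94% (7.54% to 8.37%) elsewhere. Gene bodies took up 63.4% of the bases of dense windows and 43.1% in the other windows with a region. Dense windows also held a median of 11 lncRNA genes, compared with 5.

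Gene number did not set the order alone. Across all 2886 windows the rank correlation of gene number and summed regions was 0.78, and among the 100 dense windows, which span a narrow range of sums, it was 0.41. Both are descriptions, since neighbouring windows share a genome neighbourhood and all counts share the same 3 lists. Of the 86 windows with at least 30 genes, 35 were dense (40.7%, 30.2% to 51.8%), compared with 1 of the 1522 windows with up to 4 genes. Of the 100 windows with most genes, 39 were dense. The dense window with most genes, chr17:7000001-8000000 (rank 22), held 64, among them POLR2A, the largest subunit of RNA polymerase II, with 42 hPSC, 29 shLUC and 30 shHNRNPU regions. The keratin cluster at chr17:41000001-42000000, with 61 genes, held only 25, 16 and 13 regions and ranked 747. The window at chr6:31000001-32000000, which carries HLA-B and POU5F1, the pluripotency factor OCT4, held 57 genes with 31, 20 and 21 regions and ranked 202. At the other end, the window ranked 5, chr10:132000001-133000000, had 8 genes and 121 regions, and the dense window with fewest genes, chr18:58000001-59000000 (rank 87), had 4 genes and 81 regions. In all, 13 dense windows had fewer than 10 genes.

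**Figure D2:**
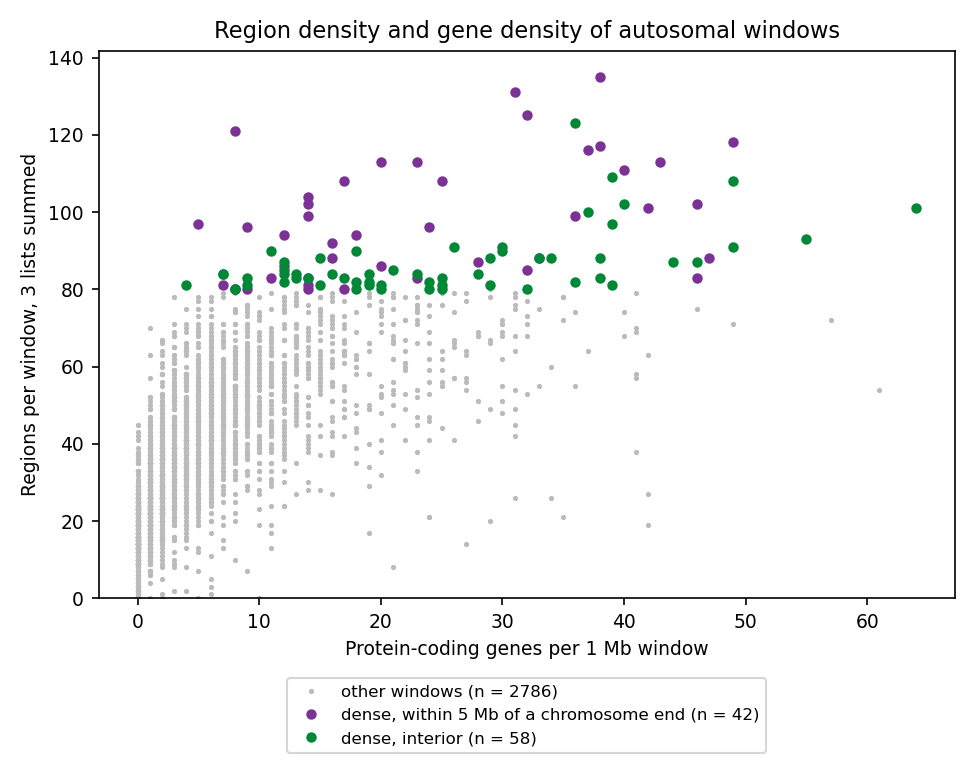
Regions per window summed over the 3 lists (vertical axis) against protein-coding genes per window (horizontal axis) for 2786 other windows (grey), 42 dense windows near a chromosome end and 58 dense windows in the interior. The dense windows start at a sum of 80 by the rule, extend from 4 to 64 genes, and the highest sums lie mostly near chromosome ends.

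The dense windows formed 76 separate stretches. There were 56 single windows, 16 pairs and 4 runs of 3, and 44 of the 100 windows had a dense neighbour. The runs of 3 lay at chr7:1-3000000, chr8:142000001-145000000, chr11:64000001-67000000 and chr16:1-3000000. The run on chromosome 16 begins at the chromosome's first base, carries the alpha-globin genes HBA1 and HBA2, and held 95 hPSC, 131 shLUC and 116 shHNRNPU regions and 132 genes. The run on chromosome 11, which lies in the interior and carries MEN1, RELA and BANF1, held 104, 105 and 105 regions and 122 genes. The 143 windows that touched a dense window without being dense had a median sum of 57, against 37 for the 2643 windows that touched none. Of the 143, 81.1% (73.7% to 87.2%) lay above the median of 38. Chromosomes 22 and 19 had the largest shares of dense windows, with 5 of 51 (9.80%) and 5 of 59 (8.47%), and chromosome 10 the smallest, with 2 of 134 (1.49%). Every autosome had at least 1.

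Dense windows were more often near chromosome ends than other windows. Of the 100, 42 (32.2% to 52.3%) began or ended less than 5 Mb from the first base of the chromosome or from the last gene or region on it, compared with 200 of 2786 other windows (7.18%, 6.25% to 8.20%). These 42 are called end windows below, and the other 58 interior windows. Of the 25 densest windows 19 were end windows, and of the 10 densest 9 were. End windows were no richer in genes than interior ones, with a median of 20 protein-coding genes per dense end window and 23.5 per dense interior window. Among windows with 5 to 9 genes, 6 of 54 near an end were dense, against 6 of 687 in the interior. Among those with 10 to 19 genes the counts were 14 of 46 and 18 of 365, and among those with at least 30 genes 15 of 22 and 20 of 64. Median sums were also higher near ends at the same gene number, for example 68.5 against 57 for 10 to 19 genes and 93.5 against 72 for at least 30 genes. For windows with up to 4 genes they were 26 and 25. The classes take in all windows, including the 132 with no region, and empty windows lower a median. How these divide between ends and interior was not examined, so likeness is not shown for windows that hold regions.

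The lists contributed unequally to the end windows. The dense end windows held 1162 hPSC, 1566 shLUC and 1399 shHNRNPU regions, so that 28.2% (26.8% to 29.6%) of their regions came from the hPSC list. In the dense interior windows the counts were 1784, 1656 and 1595, and the hPSC share was 35.4% (34.1% to 36.8%). Outside the dense windows the hPSC share was 33.7% near ends and 34.9% in the interior. These shares are made of the counts that chose the windows and describe 1 list per group. The gap between dense interior and end windows, 7.28 percentage points, was 4.28 when windows were ranked on shLUC alone and 4.88 for the 200 densest windows. hPSC had the lowest count of the 3 lists in 32 of 42 dense end windows and in 11 of 58 interior ones. Over all windows with a region, hPSC was below shLUC in 44.7%, and the share below both hairpin lists can be no higher. hPSC had the highest count in 2 of 42 and in 29 of 58, hence in 31 of the 100 dense windows, beside 42.4% of all windows with a region. Each of the 5 windows below shows the counts in the order hPSC, shLUC, shHNRNPU. The lowest hPSC share was that of chr11:1000001-2000000 (18.8%, with 18, 44 and 34 regions), which carries the keratin-associated KRTAP5 genes and MRPL23, and the next was that of chr20:62000001-63000000 (19.5%, with 22, 52 and 39). The highest was that of chr11:62000001-63000000 (49.4%, with 40, 22 and 19), which holds 39 protein-coding genes. Among them HNRNPUL2, a relative of HNRNPU, gave only 1, 1 and 1 of these regions. That window was followed by chr1:16000001-17000000 (46.7%, with 42, 22 and 26) and by an end window, chr19:55000001-56000000 (46.6%, with 41, 24 and 23). The end window holds a group of zinc-finger and NLRP genes. Across the 100 dense windows the hPSC share had a rank correlation of 0.56 with distance from the chromosome end and of 0.14 with gene number. Why the lists differ there was not tested.

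**Figure D3:**
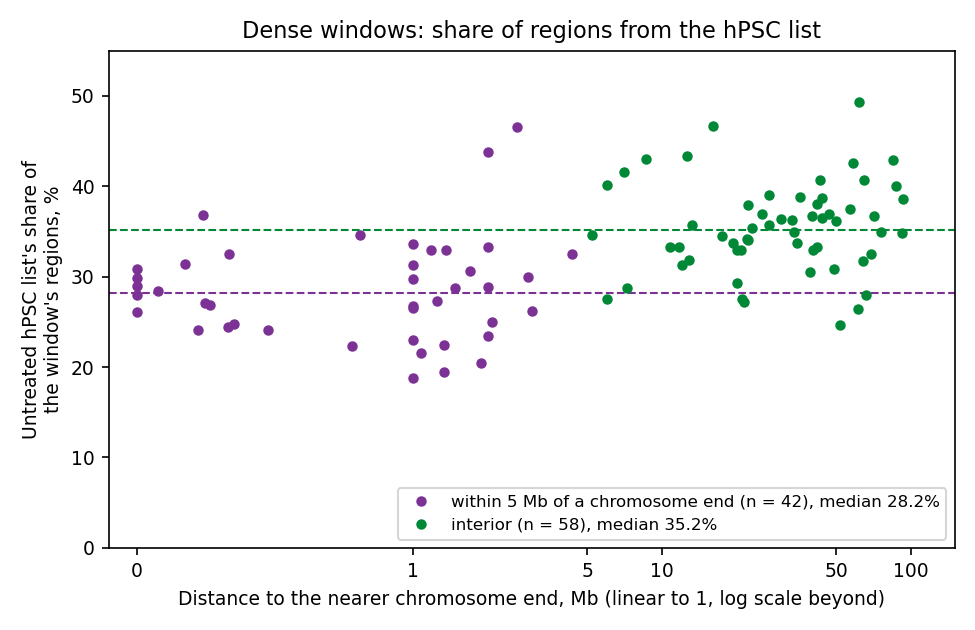
Share of a dense window's regions that came from the hPSC list in percent (vertical axis) against distance to the nearer chromosome end in Mb (horizontal axis, linear up to 1 Mb and logarithmic beyond), with 1 point per dense window and dashed lines at the medians. The median was 28.2% over 42 end windows and 35.2% over 58 interior windows, and both groups spread widely.

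The study asked what HNRNPU does for the nuclear matrix, and between its knockdown and the control hairpin the dense windows showed little difference. As shares of each list's autosomal regions, the dense windows held 8.37% (8.08% to 8.66%) of shHNRNPU and 8.29% (8.02% to 8.57%) of shLUC. The log2 ratio of the shares was 0.01 (-0.06 to 0.09), and it was -0.04 (-0.15 to 0.06) in end windows and 0.06 (-0.04 to 0.16) in interior windows. By count, shHNRNPU had fewer regions than shLUC in 66 dense windows, more in 26 and the same number in 8, beside 57.2% of all windows with a region in which it had fewer. The shHNRNPU list is the shorter one, and relative to list length its share was the lower in 44 of the 100 windows. Window by window the log2 ratio of shares ran from -0.58 to 0.58. The hPSC list had 7.45% (7.20% to 7.72%) of its regions in dense windows, and its log2 ratio to shLUC was -0.15 (-0.23 to -0.08). The sign of this ratio depends on the list that chose the windows, since it was 0.27 when they were ranked on hPSC alone and -0.40 when ranked on shLUC alone. This ratio was -0.45 (-0.57 to -0.34) in end windows and 0.08 (-0.01 to 0.18) in interior windows. hPSC had fewer regions than shLUC in 58 dense windows, beside 44.7% of all windows with a region. The ratios to shLUC share that list. They compare single lists, and a difference between lists cannot be told apart from one between the cultures or the calling behind them.

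Position by position, the hairpin lists overlapped each other slightly less in dense windows than elsewhere, and the hPSC list overlapped them slightly more or about as much. By the rule the dense windows held more regions, with a mean of 32.2 shLUC regions per window against 12.8 elsewhere. More regions per window also bring more overlap by coincidence, and the size of that part was not tested. Of shLUC regions in dense windows, 68.6% (67.0% to 70.2%) overlapped a shHNRNPU region by at least 1 bp, below the 71.1% (70.6% to 71.6%) elsewhere. That difference of -2.47 percentage points was -0.38 when windows were ranked on shHNRNPU alone and -5.55 when ranked on shLUC alone, so its size depends on the list that chose the windows. Seen from shHNRNPU, 73.9% (72.3% to 75.4%) overlapped shLUC, against 77.3% (76.8% to 77.7%). Nearly all of these pairs had identical coordinates, with 2211 positions in dense windows found in both hairpin lists. The hPSC list shared few positions with the others in dense windows and elsewhere. Of its regions in dense windows, 15.7% (14.4% to 17.1%) overlapped shLUC and 18.1% (16.7% to 19.5%) overlapped shHNRNPU, compared with 13.8% and 15.4% elsewhere, and 77.02% overlapped neither, compared with 80.1% elsewhere. Of shLUC regions 14.4% overlapped hPSC in dense windows and 14.2% elsewhere, and the intervals (13.2% to 15.7% and 13.8% to 14.6%) overlapped. Both other lists were overlapped by 320 shLUC regions of dense windows, 9.93%, close to the 9.64% elsewhere. Over the 1000 bins of 100 kb in dense windows the rank correlation of counts was 0.71 between the hairpin lists, 0.11 between hPSC and shLUC, and 0.17 between hPSC and shHNRNPU. These bins share windows chosen for their total, so the values only describe how the lists were placed.

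**Figure D4:**
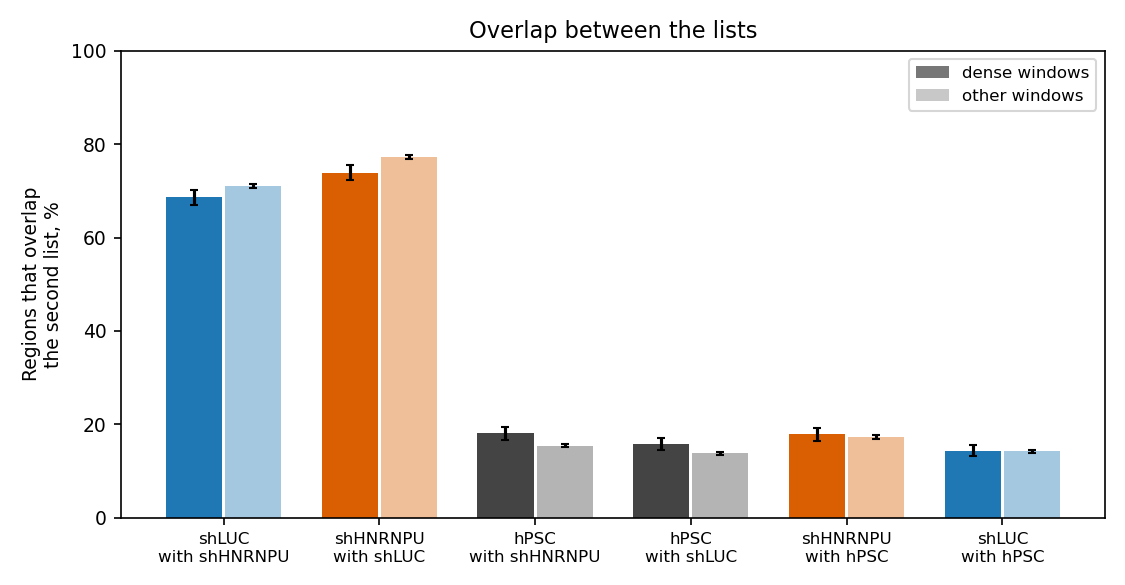
Share of the regions of the first-named list that overlapped the second-named list in percent (vertical axis), in dense windows (full colour) and other windows (pale), with exact 95% binomial intervals. Overlap between the hairpin lists lay between 68.6% and 77.3%, and every overlap with hPSC lay below 20%.

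Within the dense windows the regions lay in and beside genes more often than elsewhere, as did the bases. Region centres in a protein-coding gene made up 60.9% of hPSC, 69.8% of shLUC and 70.6% of shHNRNPU regions in dense windows, against 51.4%, 54.5% and 54.8% elsewhere. Divided by the share of bases in gene bodies, these were 0.96, 1.10 and 1.11 in dense windows and 1.19, 1.26 and 1.27 elsewhere. Centres within 1 kb of either end of a protein-coding gene made up 29.2% (27.6% to 30.9%) of hPSC, 21.5% (20.1% to 23.0%) of shLUC and 25.0% (23.4% to 26.6%) of shHNRNPU regions in dense windows. Elsewhere the shares were 18.3%, 12.04% and 13.3%. Such bases made up 8.34% of dense windows and 2.28% of the others, so the share of regions was 3.51, 2.58 and 3.00 times that of bases in dense windows, and 8.01, 5.28 and 5.85 times elsewhere. Per protein-coding gene there were 0.35 hPSC, 0.28 shLUC and 0.30 shHNRNPU regions near a gene end in dense windows, against 0.40, 0.26 and 0.26 elsewhere. Gene for gene, regions near gene ends were thus fewer in dense windows in hPSC and slightly more in the hairpin lists. Most of the regions lay away from gene ends, with 20.9 hPSC, 25.3 shLUC and 22.5 shHNRNPU regions per dense window. The hPSC list had 6.86 regions near gene ends per dense end window and 9.88 per dense interior window, with 20.8 and 20.9 regions away from gene ends. shLUC had 8.33 and 5.93 near gene ends and 28.95 and 22.6 away from them.

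**Figure D5:**
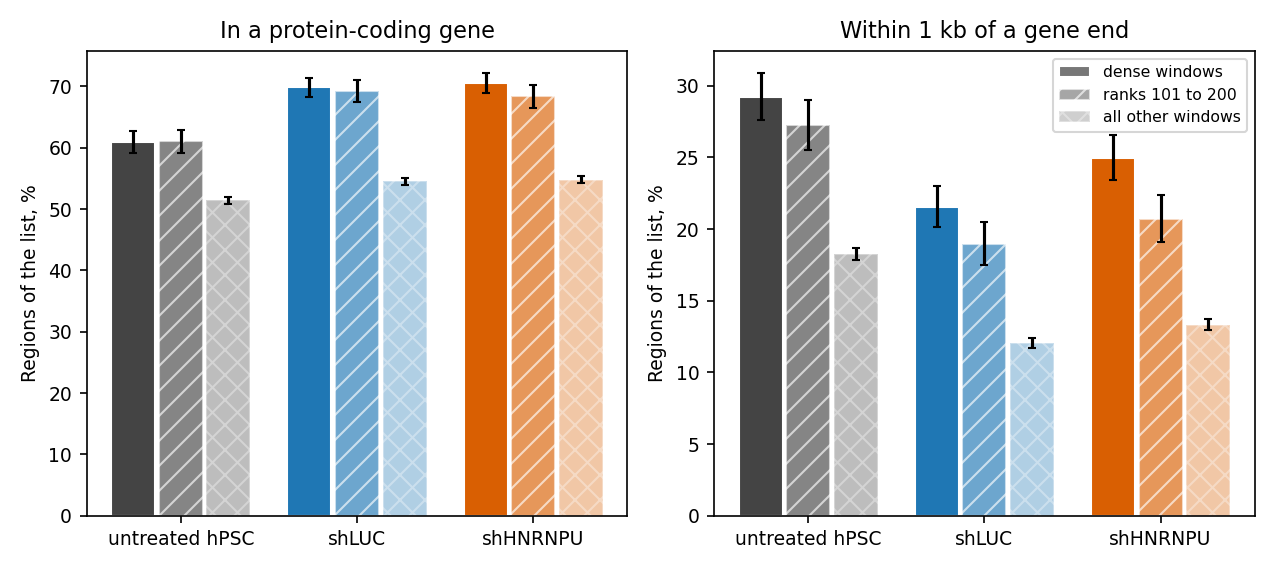
Share of each list's regions in percent (vertical axes) with the centre in a protein-coding gene (left) or within 1 kb of an end of one (right), in dense windows, in the windows ranked 101 to 200 and in all windows outside the dense ones, which include ranks 101 to 200, with exact 95% binomial intervals. Dense windows exceeded the other windows in all 3 lists, with 29.2% against 18.3% for hPSC near gene ends, and the windows ranked 101 to 200 lay close to the dense ones in gene bodies.

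Counted by gene, the dense windows did not have a higher share of marked genes. The shares of gene bodies were not adjusted for length, and a longer body has more room for a centre. Genes of dense windows had a median length of 12.6 kb, against 27.7 kb elsewhere. A region centre of any list lay in the body of 1682 of 2454 genes (68.5%, 66.7% to 70.4%), beside 69.9% of all autosomal protein-coding genes. For hPSC alone it was 1142 (46.5%), beside 52.9%. For shLUC it was 1221 (49.8%), beside 52.2%, and for shHNRNPU 1231 (50.2%), beside 51.1%. Promoter sequences were found in RefSeq for 1878 of the 2454 genes, none of them on chromosome 8, and for 15100 of 18969 in all. Regions overlapped the promoter of 524 genes of dense windows in hPSC (27.9%, beside 32.9% of all promoters), of 299 in shLUC (15.9%, beside 16.6%) and of 349 in shHNRNPU (18.6%, beside 17.8%). All 3 lists overlapped the promoter of 100 genes (5.32%, beside 6.45%). All of these shares except that of shHNRNPU promoters lay below the background, and that one lay close to it. Promoters of dense windows had a median of 66.3% G and C, against 62.3% elsewhere. The 100 promoters with all 3 lists had a median of 72.3% and 36 CpG pairs, against 65.7% and 24 for the other 1778.

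The enzymes' recognition sites were common in promoters in general. An MspI site was found in 83.9% of promoters of dense windows and in 75.9% of all promoters, and a HaeIII site in 93.0% and 85.5%. An AluI site was found in 69.8% and 73.2%, an RsaI site in 24.1% and 27.4%, a BamHI site in 8.15% and 7.30%, and a PvuII site in 18.5% and 17.6%. A promoter of a dense window held a median of 8 sites, against 7 over all promoters. The 100 promoters with all 3 lists held a median of 4 MspI sites, compared with 2.5 for the other 1778, and 3 HaeIII sites in both. Matches of letters describe these windows of 300 bases only, and the part of digestion in the lists was not tested.

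In most of the 12 densest windows no single gene held a large part of the regions, and the genes with most region centres, 2 per window with 1 left out on chr20, are named here. In the densest window these were SBNO2, a transcriptional coregulator, with 1 hPSC, 3 shLUC and 4 shHNRNPU centres, and TCF3, a helix-loop-helix factor of lymphocyte development, with 2, 3 and 3. Each gave 5.93% of the window's regions. On chr20 ZBTB46, a zinc-finger factor of dendritic cells, held 2, 4 and 3. On chr8 they were PLEC, the cytoskeletal linker plectin, with 2, 4 and 4, and ZC3H3, a zinc-finger protein of mRNA processing, with 2, 4 and 2. Both hairpin lists exceeded hPSC or equalled it at each of these named genes.

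The window ranked 4 differed. Its leading gene MACROD1, an ADP-ribose hydrolase of 168 kb at chr11:63998558-64166113, held 10, 10 and 9 centres, or 23.6% of the window's regions. FLRT1, an adhesion protein whose gene lies inside MACROD1, shared 6, 8 and 6 of them. In the window ranked 5 the long genes JAKMIP3 (4, 10 and 8) and INPP5A, an inositol phosphatase (3, 11 and 8), each held 18.2%. The window ranked 6 was led by LMF1, a factor for lipase maturation (3, 4 and 4), and RAB11FIP3, of endosome recycling (3, 1 and 4).

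EHMT1, a histone H3 lysine methyltransferase, held 8, 4 and 4 centres in the window ranked 7, and EXD3 held 3, 5 and 4. In the window ranked 8, NACC2 held 0, 5 and 4, and NOTCH1, the cell-surface receptor, 1, 4 and 2. TMEM255B (2, 6 and 4) and MCF2L, a guanine nucleotide exchange factor (4, 2 and 5), led the window ranked 9, and CACNA1H, a calcium channel (2, 5 and 5), and IFT140, of ciliary transport (0, 5 and 4), led the window ranked 10. The windows ranked 11 and 12 were led by DIDO1 (4, 5 and 4) with TAF4, a subunit of TFIID (1, 6 and 4), and by CASKIN1 (1, 3 and 3) with TRAF7, a ubiquitin ligase (0, 4 and 2). EHMT1 was 1 of 2 genes among those named at which hPSC exceeded both hairpin lists or was level with the higher one, the other being MACROD1.

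Over all dense windows the genes with most region centres were long ones. CACNA1C, which codes for a cardiac and neuronal calcium channel, spans 727 kb at chr12:1970780-2697950 and held 20 hPSC, 19 shLUC and 15 shHNRNPU centres within dense windows. Its window, ranked 97, holds 8 genes and 80 regions. MAD1L1, of the spindle checkpoint, held 9, 19 and 17, so hPSC had the lowest count. MSI2, an RNA-binding protein of stem cells, held 16, 14 and 12. PCDHA1 held 11, 15 and 13 and PCDHA2 10, 14 and 12, but these protocadherin genes overlap over most of their length and count the same regions.

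Gene families fell into the dense windows to very different degrees. Beside the 12.9% of all autosomal protein-coding genes, 55 of 63 protocadherin genes, which code for adhesion proteins of neurons, lay there, all in the neighbouring windows ranked 14 and 26 on chromosome 5. Of these 55, 47 held a region centre of some list, beside 69.9% of all autosomal protein-coding genes, and many share the same bases. PCDHB1 had 1 hPSC centre and no other, while PCDHB2, PCDHB3, PCDHB4 and PCDHB6 each had 1 shLUC and 1 shHNRNPU centre, and PCDHB5 had 1 of each list. Of 73 clustered histone genes 24 lay in dense windows, 21 of them in the window ranked 61 on chromosome 6. Most of these genes are short, and 3 of the 24 held a region centre, beside the same 69.9%. They were H2BC12 with 1 hPSC and 1 shLUC, and H2BC15 and H2AC17 with 1 hPSC each. Of those first by window rank, H2AC25, H2BC26, H2BC11 and H2AC11 held none.

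Among genes of protein synthesis, 14 of 78 ribosomal protein genes (17.9%) and 15 of 77 mitochondrial ribosomal protein genes (19.5%) lay in dense windows, in 12 and 15 windows. Most are short, and 6 of the 14 and 4 of the 15 held a region centre, beside 69.9% of all autosomal protein-coding genes. RPS15, RPL3L, RPS2, RPS21, RPL13 and RPL8 came first by window rank. RPS15 had 1 shLUC and 1 shHNRNPU centre, RPL3L and RPL13 had 1 hPSC centre each, and RPS2, RPS21 and RPL8 had none. Of MRPL28, MRPL41, MRPS34, MRPL24, MRPL51 and MRPL20, only MRPL41 had centres, 1 shLUC and 1 shHNRNPU. Proteasome subunits and their assembly factors had 6 of 47 (12.8%), near the background, and 4 of the 6 held a centre, beside the same 69.9%. PSMA7, PSMB10 and PSMD13 had 1 hPSC centre each, PSMG4 had 1 shHNRNPU centre, and PSMG3 and PSMD2 had none.

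Of 365 solute carriers 59 (16.2%) lay in 37 dense windows, and 46 of the 59 held a centre, beside 69.9% of all autosomal protein-coding genes. SLC22A11, an organic anion transporter, had 0 hPSC, 3 shLUC and 2 shHNRNPU centres, and its neighbour SLC22A12, the urate transporter, had 0, 2 and 2. SLC34A3, a phosphate transporter of the kidney, had 0, 1 and 1, SLC9D1 had 3, 3 and 2, SLC17A9, a nucleotide transporter of vesicles, had 1, 0 and 0, and SLC25A44, a mitochondrial carrier, had 0, 3 and 1. Zinc-finger genes were fewer than the background, with 39 of 543 (7.18%), and 30 of the 39 held a centre, beside the same 69.9%. ZNF512B had 1, 2 and 2 centres, ZNF696 had 0, 1 and 1, ZNF598 had 1, 1 and 1, and ZFP41, ZNF623 and ZNF707 had none. Keratin and keratin-associated genes had 22 of 149 (14.8%), in 2 windows, and 3 of the 22 held a centre, beside the same 69.9%. KRTAP5-1 to KRTAP5-6 all had 0, and the 22 genes are short. Only 6 of 386 olfactory receptor genes (1.55%) lay in dense windows. No region centre lay in OR6B2, OR6B3, OR4F17, OR2B2, OR2B6 or OR2Y1, beside the same 69.9%, and most of these genes are short. None of 39 HOX genes did, so the HOX clusters lay outside the dense windows altogether.

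Genes of the nuclear matrix, lamina and hnRNP proteins had 6 of 37 in dense windows (16.2%), and HNRNPU itself was not among them. LMNA, which codes for lamin A and C, held 5 hPSC, 2 shLUC and 2 shHNRNPU centres, in the window ranked 13. SUN1, which links the nuclear envelope to the cytoskeleton, held 2, 1 and 1, and CTCF, the loop-anchoring factor, 2, 1 and 0. HNRNPUL2 held 1, 1 and 1, HNRNPH1 held 1, 1 and 0, and BANF1, a chromatin-bridging factor, held none. Counts this small differ by 1 to 3 regions and allow no order of the lists. Of 28 regulators of pluripotency, 2 lay in dense windows (7.14%). TERT, the catalytic subunit of telomerase, held 1 hPSC, 4 shLUC and 3 shHNRNPU centres in an end window of chromosome 5, and DNMT3L, a cofactor of DNA methylation, held none.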

How the data were processed

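MAR-seq was performed by the authors in 6 samples of H1 cells, 2 per group, and 1 deposited list of region positions per group was analysed. The submitters' processing notes name hg38, cutadapt, Bowtie2, SAMtools, MACS2 and deepTools. Their versions and roles, the calling threshold, the use of the input and the pooling of samples were not given in the sources used here. The paper supplied with the series describes other assays, and no methods were taken from it. The deposited lists hold a chromosome, start and end, with a score of 0 throughout, so each region counted as 1 whatever its signal. Coordinates are given counted from 1.

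Genes, promoters and gene names came from RefSeq on GRCh38.p14. Of its autosomal gene entries, 676 (153 protein-coding) that break the order along a chromosome, as entries of unplaced or alternate scaffolds do, were left out. A gene belonged to the window of its midpoint. The table lists neither exons nor, for genes, strand, and the promoter table is incomplete. Chromosome ends were taken as the first base and the last gene or region.

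Members and gene lists were chosen with earlier results of these data known. The genes named were the 2 with most region centres in each of the 12 densest windows, the 5 with most centres in all, up to 6 members per gene list by window rank, and the first 4 promoters overlapped by all lists, by window rank and gene start, with at most 1 per window and none on chromosome 8. Genes that only place a window on the map (such as POLR2A or HBA1) were chosen after values were seen. Some genes that these rules name are not reported here. No test was run, since each group has 1 list. Alternatives were other window sizes, numbers and origins, other sums, gene definitions and overlaps. The code was tested on simulated lists. Tables were handled with pandas 2.3.3 and numpy 2.4.6 in Python 3.11.15, intervals computed with scipy 1.17.1, and plots drawn with matplotlib 3.10.9.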

Additional observations from a re-analysis of the deposited data

How the results depend on the processing

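No paired analysis was possible because no list belongs to a single sample. Of 102 recomputed values, 72 stayed within the interval of the value reported (or within 1.5 times a count or a difference of medians) and 30 did not, which are given here. Direction was kept in 93. The excess of the median number of protein-coding genes in dense over other windows, 18, was 28.5 for the 50 densest windows, 9 for 200 windows of 500 kb, 38.5 for 50 windows of 2 Mb and 30 with all genes. Under the same window settings, and for the 200 densest windows of 1 Mb, 23, 89, 9 and 100 windows had a dense neighbour, in place of 44. These settings change the number or size of windows by construction. Over the 3 lists together, the share of regions in a gene body was 13.7 percentage points higher in dense windows, and 11.95 with 500 kb windows, 12.3 when ranked on hPSC alone, 12.6 on shHNRNPU alone and 8.86 with all genes. The share near a gene end was 10.5 points higher, and 13.1 for the 50 densest windows, 13.8 when ranked on hPSC alone, 8.57 on shLUC alone, 11.7 with all genes and 21.0 within 5 kb. The log2 ratio of shHNRNPU to shLUC, 0.01, was -0.094 when windows were ranked on shLUC alone. That of hPSC to shLUC, -0.15, was -0.24 for the 50 densest windows, 0.27 when ranked on hPSC alone, -0.40 on shLUC alone and -0.26 on shHNRNPU alone, so its direction turned where hPSC chose the windows. The overlap of shLUC with shHNRNPU, 2.47 points lower in dense windows (a difference of -2.47), differed by -4.59 with each position counted once, by -5.55 when ranked on shLUC alone and by -0.38 on shHNRNPU alone. That with hPSC, 0.20 points higher, differed by 3.33 when ranked on hPSC alone and by -1.16 on shLUC alone. The excess of the hPSC share in interior over end windows, 7.28 points, was tried under 8 settings chosen after seeing the data. It was positive in all, and 4.88 for the 200 densest windows, 4.28 when ranked on shLUC alone and 5.34 on shHNRNPU alone. Read depth is unknown, and without a height per region weak and strong regions count alike.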

Other observations

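Small RNA genes differed in how often they lay in the dense windows. Of 425 autosomal tRNA genes, which code for the adaptors of translation and often lie in clusters, 111 (26.1%, exact 95% interval 22.0% to 30.6%) were there. For miRNA genes it was 223 of 1793 (12.4%, 10.9% to 14.1%) and for snoRNA genes 88 of 1144 (7.69%, 6.21% to 9.39%). Of lncRNA genes 1137 of 17525 (6.49%) and of pseudogenes 577 of 14160 (4.07%) lay in dense windows. Over autosomal genes of all types the share was 8.42%, and over protein-coding genes it was 12.9%. The snoRNA interval holds the share over all types, and the miRNA share lay above it. Clustered genes are not independent, and the intervals cover counting error only.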
